A study of Rattus norvegicus with 8 samples.

Results

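The AMPA and kainate receptor subunits are 9 of the 15545 genes named on the array, Gria1 to Gria4 for the AMPA family and Grik1 to Grik5 for the kainate family. Members were taken by gene name, and 11 of the 41012 probes carried such a name, 6 for AMPA and 5 for kainate subunits. All 9 genes had at least 1 probe, and Gria2 and Gria4 had 2 each. The accession given for 10 of the 11 probes was found in the RefSeq table of assembly GRCr8, and the Grik5 probe was placed by its gene name alone. Transcripts were measured in laser-captured neurons of the CA3 subfield of the hippocampus of male Sprague-Dawley rats, on 8 one-colour Agilent whole genome arrays.

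There were 4 groups of 2 arrays each. Naive rats had no treatment, sham rats had the operation without the injury, and injured rats received moderate fluid percussion, a model of traumatic brain injury. Brains were taken 24 h later. In injured rats, neurons stained by Fluoro-Jade, a fluorescent dye for degenerating neurons, made up the dying pools, and unstained neurons made up the surviving pools. Each surviving and dying pool held about 600 neurons from several rats, and the number for naive and sham pools is not given. An array is thus taken as a pool and not an animal. The paper describes biological replicates hybridized in duplicate, and the labels give only replicate numbers. If the arrays of a group came from separate pools, p-values measure the spread between pools, estimated over all 4 groups together.

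Every value below is a scaled signal, the background-subtracted intensity of a probe divided by the median of its array, so that 1 is the array median. Array medians were 27.2 and 22.7 units for the naive pair, 16.5 and 16.4 for the sham pair, 52.2 and 48.2 for the surviving pair and 19.2 and 52.6 for the dying pair. Probes well above background numbered 22445 and 22390 for the naive pair, 20910 and 20191 for the sham pair, 29345 and 27079 for the surviving pair and 24057 and 27995 for the dying pair, and the small number of arrays limits the precision. Naive and sham arrays lay on 1 slide and surviving and dying arrays on the other, so the effects of injury and of slide cannot be told apart where injured pools are compared with sham. The dimmest reading that counted as well above background also differed. It was 0.587 and 0.572 on the naive arrays, and 0.810 and 0.904 on the sham arrays. It was 0.203 and 0.324 on the surviving arrays, and 0.391 and 0.238 on the dying arrays. A reading could thus count as above background on an injured array and not on an uninjured one. The first dying array stood apart. Over 15250 probes above background on all arrays, the Pearson r of log2 signal was 0.892 between the 2 dying arrays, and 0.934 and 0.941 between the second dying array and each surviving array. The probes of an array are no replicates, so these r describe likeness only.

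AMPA and kainate receptors are tetrameric cation channels opened by glutamate. AMPA receptors carry most fast excitatory transmission in the hippocampus. The Gria2 subunit, when its RNA is edited at the Q/R site, makes the channel nearly impermeable to calcium, so the share of receptors without it sets how much calcium enters. Kainate receptors act on either side of the synapse, and in CA3 they are known for the slow responses at mossy fibre synapses. Grik1 to Grik3 encode subunits that can form channels on their own, and Grik4 and Grik5 encode high-affinity subunits that need a partner.

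Gria2 had the clearest pattern of the AMPA family. The first of its probes (A_44_P289627) read 131 and 131 in naive, 307 and 214 in sham, 27.5 and 19.6 in surviving pools, and 5.55 and 8.94 in dying pools. No value of an injured pool reached that of an uninjured pool, and the surviving pools lay above the dying pools. The second probe (A_44_P289630) read 40.4 and 49.8, then 93.0 and 63.5, then 14.9 and 11.99, and last 4.32 and 4.96, with the groups in the same order. The order from high to low was sham, naive, surviving and dying on both probes, and sham and naive did not differ at the threshold. The second probe was spotted 10 times on every array. The SD of its spots on the log2 scale was 0.06 to 0.07 on the naive and sham arrays, and 0.56, 0.11, 0.71 and 0.51 on the surviving and dying arrays in that order, so spots were less even on all 4 injured arrays.

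**Figure D1:**
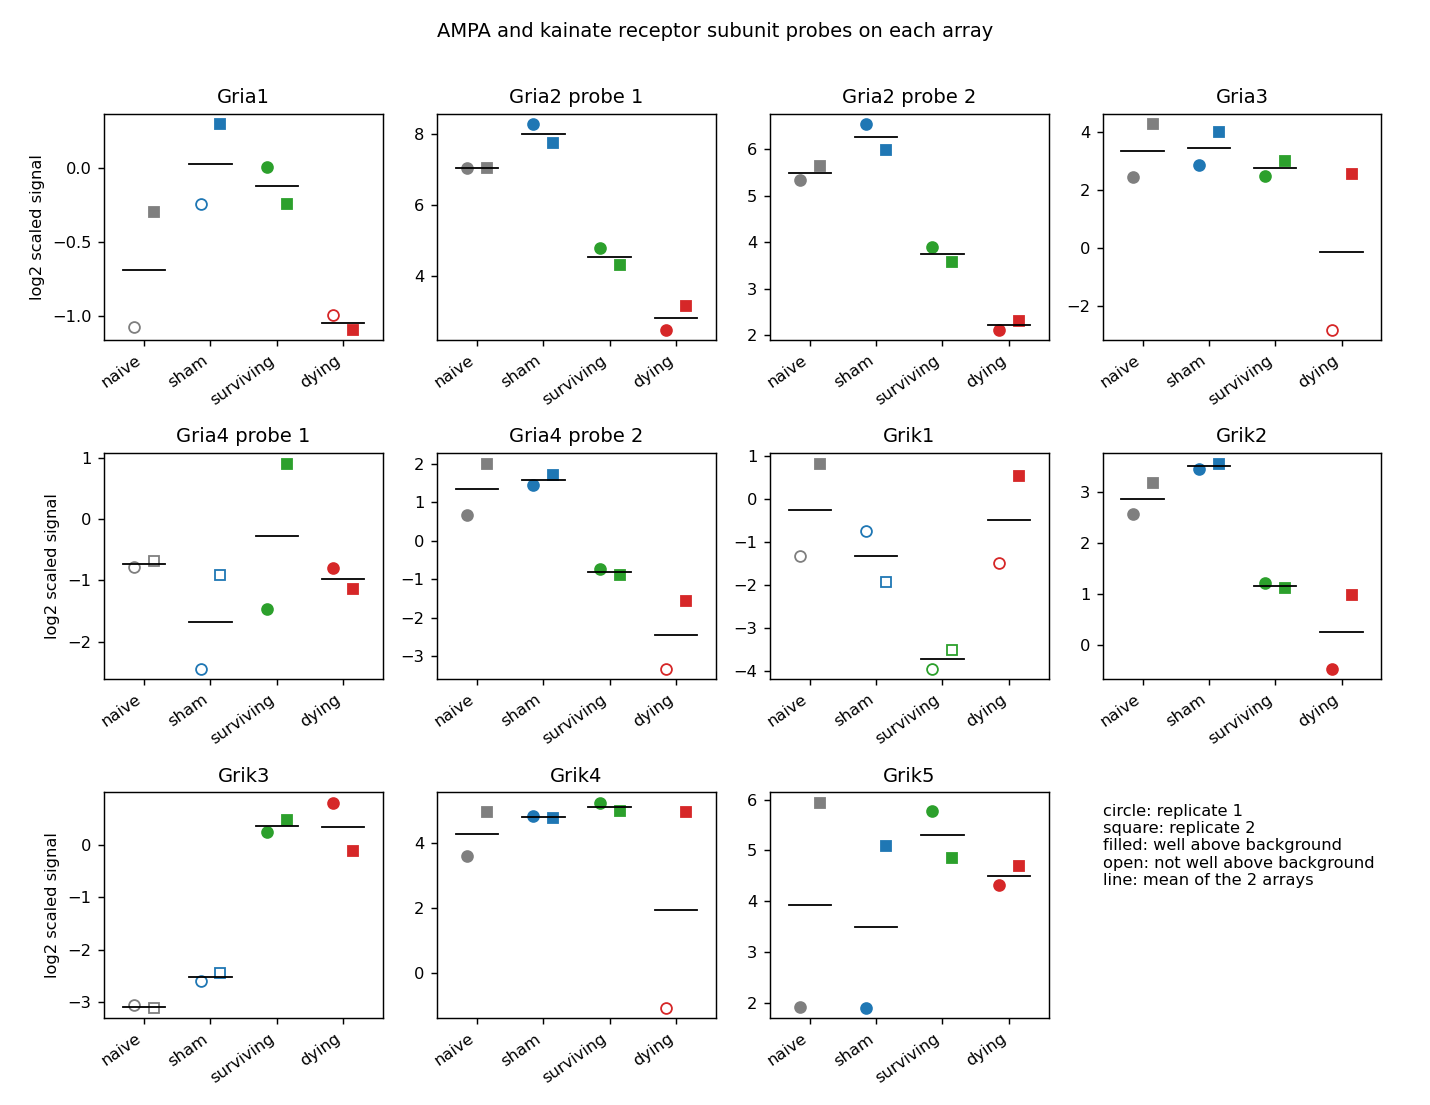
Log2 scaled signal of the 11 subunit probes on each array, with 1 panel a probe, naive, sham, surviving and dying arrays along the x axis and the line at the group mean of 2 arrays. Filled points were well above background and open points were not, and the limit for a filled point was lower on the injured arrays. Both Gria2 probes and Grik2 were lower on all 4 injured arrays than on any uninjured array, and Grik3 was above background on the 4 injured arrays only.

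Against sham, Gria2 fell in both kinds of injured neuron. In surviving neurons the log2 difference was -3.47 (95% confidence interval -4.60 to -2.33, limma adjusted p = 0.00714) on the first probe and -2.52 (adjusted p = 0.0159) on the second. In dying neurons it was -5.19 (95% confidence interval -6.32 to -4.05, adjusted p = 0.00111) and -4.05 (adjusted p = 0.00187). As folds, the first probe was 11.1-fold lower in surviving and 36.4-fold lower in dying than in sham neurons with scaling to the array median. The comparisons share the sham arrays, so they are not independent of each other. In pooled material, fewer cells of a type and less RNA per cell cannot be told apart. The scale of the arrays bears on these sizes. The median probe tested differed by -0.43 in surviving and by -0.46 in dying neurons against sham, whereas scaling by the 75th percentile put that median at 0.36 and 0.26. With scaling to probes detected on all arrays the first Gria2 probe differed from sham by -2.49 in surviving and by -4.18 in dying neurons, and with quantile normalization by -2.50 and -4.24. The second probe differed by -1.55 and -3.05, and by -1.48 and -3.16, and both probes kept their calls. Relative to the median probe the first Gria2 probe differed by -3.04 in surviving and by -4.72 in dying neurons.

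The calls depended on the processing and on single arrays. With normexp background correction 0 probes of the whole array passed in either comparison with sham. This alternative added an offset of 50 units to each spot, beside array medians of 16.4 to 52.6 units in the main processing. Such an offset makes differences of dim probes smaller. The first Gria2 probe then differed by -2.11 (adjusted p = 0.526) in surviving and by -4.32 (adjusted p = 0.441) in dying neurons, still lower in both. Without any 1 of the sham or surviving arrays, the call in surviving neurons was lost on both probes, with adjusted p-values of 0.0525 to 0.0919 on the first. The difference itself stayed at -3.73 to -3.21 on the first and -2.80 to -2.25 on the second probe. The call in dying neurons held on both probes whichever array was left out.

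Gria2 between surviving and dying neurons, both from injured rats and on 1 slide, was higher in surviving neurons by 1.72 (95% confidence interval 0.58 to 2.86) and 1.53 (95% confidence interval 0.46 to 2.60) on the log2 scale. Both surviving arrays lay above both dying arrays on either probe, but the adjusted p-values of 0.142 and 0.149 did not pass the threshold of 0.05. Without the second dying array, the first probe differed by 2.06 (adjusted p = 0.0356) and the second by 1.63 (adjusted p = 0.0609). Without the first dying array, which stood apart, the first probe differed by 1.37 (adjusted p = 0.310), and without either surviving array its adjusted p was 0.468 and 0.391.

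Gria1, which encodes the AMPA subunit inserted into synapses in long-term potentiation, gave a dim signal on its probe of 10 spots. It read 0.475 and 0.813 in naive, 0.846 and 1.23 in sham, 1.005 and 0.846 in surviving pools, and 0.502 and 0.468 in dying pools, and it was above background on 5 of the 8 arrays. No comparison of Gria1 passed the threshold. It was not tested in dying against sham and in sham against naive neurons, where neither group had it above background on both arrays. A dim reading on 1 probe does not give the transcript's abundance.

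Gria3, which encodes a further AMPA subunit, read 5.47 and 19.3 in naive, 7.34 and 16.2 in sham, 5.601 and 8.12 in surviving pools, and 0.141 and 5.86 in dying pools. Only the first dying array was not well above background, and it set most of the difference. The log2 difference of surviving from dying neurons was 2.89 (adjusted p = 0.319) with all arrays, and 0.20 without the first dying array. Dying neurons differed from sham by -3.59 (adjusted p = 0.0899), by -0.90 without the first dying array and by -6.28 without the second. Gria3 was tested there only through sham, where both arrays were above background. With replicate number as a block in the fit of all arrays, the difference passed (adjusted p = 0.0307).

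The 2 probes of Gria4, whose subunit is prominent in interneurons and early in development, did not follow each other. The probe A_44_P349199 read 1.601 and 4.01 in naive, 2.73 and 3.27 in sham, 0.607 and 0.540 in surviving pools, and 0.0997 and 0.336 in dying pools, all above background except the first dying array. It fell by 4.03 on the log2 scale in dying neurons against sham (adjusted p = 0.00559), and by less, with a difference of -0.75 (adjusted p = 0.444), with normexp. In that comparison it passed the filter on dim probes only through sham, where it was high. Dropping the filter changed only the number of probes in the adjustment, and gave an adjusted p of 0.00870. The size of the fall rests in part on the undetected first dying array. Among probes above background on all arrays compared, this probe was not tested in dying against sham neurons. Its difference of -2.38 in surviving neurons missed the threshold (adjusted p = 0.0540). That difference passed with the series value table (adjusted p = 0.0279), with only these groups fitted (adjusted p = 0.00945), and without any 1 naive (adjusted p = 0.0499) or dying array (adjusted p = 0.0235). It did not pass in the other alternatives, with an adjusted p of 0.141 with the 75th percentile, 0.173 with scaling to detected probes, 0.513 with normexp, and 0.173 to 0.240 without any 1 sham or surviving array. The probe A_44_P323349 read 0.579 and 0.624 in naive, 0.183 and 0.532 in sham, 0.362 and 1.87 in surviving pools, and 0.572 and 0.452 in dying pools. It was above background on the 4 injured arrays only, where the limit of detection was lower. The undetected naive readings, 0.579 and 0.624, were higher than both dying readings. No comparison of this probe passed the threshold. Which transcripts of Gria4 each probe reads was not tested.

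Because Gria2 acts through its share of the AMPA receptor, its probe was also set against those of Gria1 and Gria3 within each array, which does not depend on the scaling of the array. The log2 ratio of the Gria2 to the Gria1 probe was 8.10 and 7.33 in naive, 8.503 and 7.45 in sham, 4.77 and 4.53 in surviving pools, and 3.47 and 4.26 in dying pools. Gria1 was not well above background on the first naive, sham and dying arrays, so the ratios there rest on an undetected probe and no test is given. On the other 5 arrays the naive and sham ratios were the higher ones. The difference from sham was -3.32 in surviving and -4.11 in dying neurons, or -2.79 and -3.58 without the first sham array, the latter still with the first dying array. Surviving differed from dying neurons by 0.79, or by 0.40 without the first dying array. With normexp and all arrays these differences were -2.06, -4.14 and 2.08, and the first naive array, at 2.43, lay below both surviving arrays, at 3.75 and 3.45. The normexp offset enters these ratios, most where a probe is dim. The ratio of Gria2 to Gria3 was 4.58 and 2.76, 5.39 and 3.73, 2.29 and 1.27, and 5.30 and 0.611 in the same order, and that of the first dying array rests on an undetected Gria3 probe. Its difference from sham was -2.78 in surviving neurons (exact permutation p = 0.3333, the smallest that 2 against 2 arrays allow). In dying neurons it was -1.60, with the first dying array within the range of the sham arrays. It was -3.94 without the first dying array, 0.75 without the second, and -3.50 on both with normexp. These ratios do not show how many channels held either subunit.

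Among the kainate subunits, Grik2 and Grik3 were called against sham. Grik2, which encodes the main channel-forming kainate subunit of CA3 pyramidal neurons, read 5.93 and 9.04 in naive, 10.99 and 11.8 in sham, 2.33 and 2.15 in surviving pools, and 0.718 and 1.98 in dying pools. Each injured pool lay below each uninjured pool. The log2 difference from sham was -2.35 in surviving (adjusted p = 0.0348) and -3.26 in dying neurons (adjusted p = 0.00610). Surviving and dying neurons differed by 0.91 (adjusted p = 0.409), which did not pass. The fall in surviving neurons lost its call with the 75th percentile (-1.56, adjusted p = 0.0990), with quantile normalization (-1.63, adjusted p = 0.0930) and with scaling to probes detected on all arrays (-1.37, adjusted p = 0.122). The call was also lost with normexp (-1.01, adjusted p = 0.526). Without any 1 sham or surviving array it was lost too, while the difference itself stayed at -2.40 to -2.29. The fall in dying neurons was -2.25 with scaling to detected probes and kept its call. The call was lost with normexp (-1.31, adjusted p = 0.441) and without the first sham array, where the difference was -3.31.

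Grik3, which encodes a kainate subunit of low glutamate affinity, was not well above background on any naive or sham array, where its readings were 0.120 and 0.116, and 0.165 and 0.184. It read 1.19 and 1.38 in surviving pools, and 1.74 and 0.924 in dying pools, and was above background on all 4 of those arrays. Where a group had no array above background, a fold is given as a bound against the dimmest probes above background on its arrays. Grik3 was at least 1.495-fold higher in surviving than in sham neurons and at least 1.48-fold higher in dying than in sham neurons. The bounds themselves were not tested. The limma calls (adjusted p = 0.0127 and 0.00525) belong to fitted log2 differences of 2.88 and 2.87, which rest on the undetected sham readings. Grik3 passed the filter on dim probes only through the injured groups, so these calls had to be higher ones. Dropping the filter changed only the number of probes in the adjustment, and gave Grik3 adjusted p-values of 0.0177 and 0.00818. These still rest on the undetected sham readings. Among probes above background on all arrays compared, Grik3 was not tested. With normexp the log2 differences were 0.58 (adjusted p = 0.461) and 0.35 (adjusted p = 0.501), and the bound in dying neurons did not hold. The call in surviving neurons was lost without any 1 sham or surviving array, and that in dying neurons without the first sham array (adjusted p = 0.0556). Surviving and dying neurons differed by 0.01 on the log2 scale (95% confidence interval -1.11 to 1.14, adjusted p = 0.993).

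The sequences before the starts of these 2 genes are shown because they were the kainate subunits called against sham. The RefSeq promoter table of build GRCr8 held 6 of the 9 members, with no entry for Gria1, Gria2 and Gria3. The 250 bases before the start are given 5′ to 3′ on the gene's strand, Grik2 at chr20:54415284-54415533 on the minus strand and Grik3 at chr5:143052192-143052441 on the plus strand. Capitals mark a GC box (GGGCGG or its reverse complement CCGCCC) or a cyclic AMP response element core (TGACGT or its reverse complement ACGTCA), motifs chosen after these sequences had been seen.
Grik2: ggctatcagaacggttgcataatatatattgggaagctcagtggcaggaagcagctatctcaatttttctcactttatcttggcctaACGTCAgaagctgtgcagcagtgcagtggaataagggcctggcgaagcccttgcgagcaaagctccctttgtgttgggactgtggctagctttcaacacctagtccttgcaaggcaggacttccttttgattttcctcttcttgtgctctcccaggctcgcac
Grik3: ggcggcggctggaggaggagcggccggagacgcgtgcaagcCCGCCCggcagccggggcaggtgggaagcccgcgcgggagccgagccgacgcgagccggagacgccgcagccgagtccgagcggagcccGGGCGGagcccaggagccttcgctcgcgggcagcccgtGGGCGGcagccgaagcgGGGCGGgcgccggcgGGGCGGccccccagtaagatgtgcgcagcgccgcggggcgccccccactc
Grik3 held 5 GC boxes and no response element core, and 81.6% of its bases were G or C. Grik2 held 0 GC boxes and 1 response element core, and 49.6% of its bases were G or C. Of all 33469 promoters in the table, over the same window, 30.5% held a GC box and 6.95% held a response element core. A match is a run of letters and not a shown binding site.

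Grik4, a high-affinity kainate subunit abundant in CA3, read 12.2 and 30.8 in naive, 28.4 and 27.7 in sham, 38.0 and 31.9 in surviving pools, and 0.478 and 31.4 in dying pools. The second dying array was near the sham and surviving arrays, and the first was not well above background. The log2 difference of surviving from dying neurons, 3.17 (95% confidence interval -0.55 to 6.89, adjusted p = 0.305), thus rested on 1 array, and was 0.15 without it. Against sham, dying neurons differed by -2.85 (adjusted p = 0.179) with all arrays and by 0.16 without the first dying array. Without the second dying array the difference was -5.87, which rests on the undetected first dying array alone.

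Grik5, the other high-affinity subunit, varied widely within the naive and sham groups. It read 3.77 and 61.4 in naive, 3.73 and 34.2 in sham, 55.0 and 28.7 in surviving pools, and 19.9 and 25.9 in dying pools, and no comparison passed. The 2 naive pools spanned the values of all injured pools. Grik1 was above background only on the second naive array, at 1.77, and on the second dying array, at 1.44. Its other readings lay between 0.0641 and 0.593 and it was tested in no comparison.

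**Figure D2:**
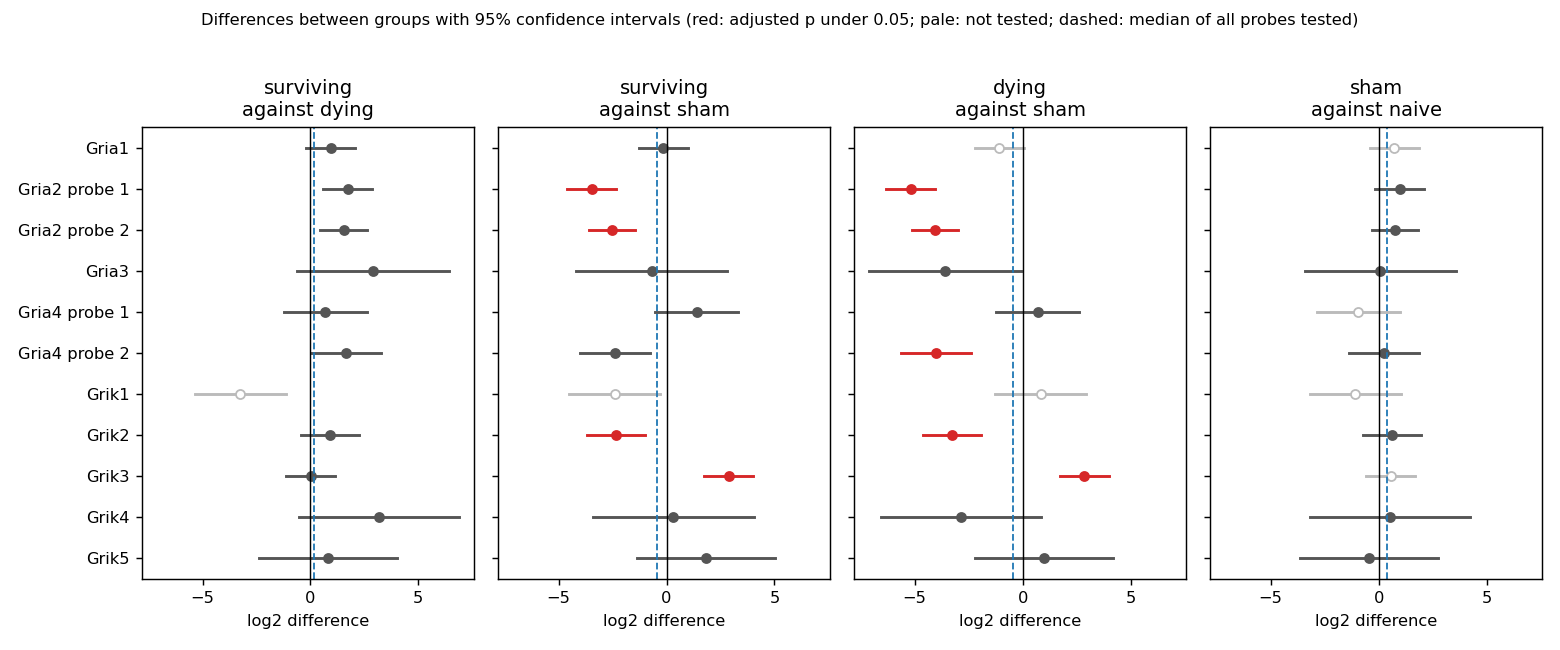
Log2 difference of each subunit probe in the 4 comparisons with its 95% confidence interval on the x axis and 1 probe a line. Red marks an adjusted p under 0.05, pale open points were not tested, and the dashed line is the median of all probes tested, at 0.14, -0.43, -0.46 and 0.37 from left to right.

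Read over the family, surviving against dying neurons asked how the receptor genes differed between neurons that did and did not degenerate in the same injured tissue. Of 11 subunit probes 10 were tested and 0 passed the adjusted threshold, and among all 27391 probes tested 0 passed too, or 0%. At an unadjusted p under 0.05, limma gave 2831 probes higher in surviving neurons, 10.3% of those tested, and 2809 lower. The subunits gave 3 higher and 0 lower. These 3 were both probes of Gria2, which followed each other over the arrays (Pearson r = 0.996), and the A_44_P349199 probe of Gria4. Both surviving arrays lay above both dying arrays for 7 of the 10, against 30.0% of all probes tested. Gria1, Gria3, the A_44_P349199 probe of Gria4 and Grik4 passed the filter on dim probes only through surviving pools. These counts thus describe and do not test the family. The median log2 difference was 1.23 over the subunit probes tested and 0.14 over all probes tested. The former was 0.62 without the first dying array and 0.66 with normexp. Without the second dying array 2947 probes of the whole array passed higher and 2461 lower, and 4 subunit probes passed as higher in surviving neurons. These were the first Gria2 probe, Gria3 (5.58, adjusted p = 0.0188), the A_44_P349199 probe of Gria4 (2.52, adjusted p = 0.0427) and Grik4 (6.19, adjusted p = 0.0137). The last 3 were not well above background on the dying array that remained and passed the filter through surviving pools alone, so these differences have no exact size. Without the first dying array 0 of all probes passed. A replicate block on the 4 arrays of these groups alone gave 372 calls among all probes. Of 9 pyramidal neuron markers tested 0 passed, 3 were higher in surviving neurons at an unadjusted p under 0.05, and the median was 1.22. Their part in the subunit differences was not tested.

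In surviving against sham neurons, which asked how injury without visible degeneration altered the genes, 3 of 10 subunit probes tested passed as lower, the Gria2 pair and Grik2, against 10.5% of all 26905 probes tested, and 1 passed as higher, Grik3, against 5.78%. The subunit median was -0.42, and that of all probes -0.43. The subunit median was 0.36 with the 75th percentile, so its sign depended on the scaling. In dying against sham neurons 4 of 9 tested passed as lower, adding the A_44_P349199 probe of Gria4, against 27.2% of all 25623 probes tested, and 1 passed as higher, against 13.6%. With the replicate block on all arrays Gria3 passed as lower too (adjusted p = 0.0307). The subunit median was -3.26, and that of all probes -0.46. The former was -0.90 without the first dying array and -0.79 with normexp. With Grik3 at its bound, the medians with all arrays were unchanged at -0.42 and -3.26. Members that passed the filter on dim probes through 1 group only are part of these counts, so the counts describe and do not test the family.

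Sham against naive neurons, which asked what the operation alone changed, gave 0 calls among 20676 probes tested, or 0%, with 633 higher and 156 lower at an unadjusted p under 0.05 in limma. Of the 7 subunit probes tested 0 passed. Both sham arrays lay above both naive arrays for 3 of the 7, against 38.0% of all probes tested. The subunit median was 0.53 and that of all probes 0.37. Gria2 differed by 0.97 (adjusted p = 0.930) and 0.78 (adjusted p = 0.930).

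Genes that work with the subunits are given next. Genes named were chosen mostly for lower values in dying than in surviving pools, so their differences from sham in the same dying pools are a description without a test.

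AMPA receptors carry auxiliary subunits that set their traffic and gating. Of 12 such genes 8 had a probe and 6 were tested between surviving and dying neurons, where 0 passed, 2 were higher and 0 lower at an unadjusted p under 0.05, and the median was 1.44. Cacng3, a transmembrane regulatory protein, read 12.6 and 37.2 in naive, 22.3 and 20.7 in sham, 11.8 and 5.04 in surviving pools, and 1.58 and 1.96 in dying pools. Its log2 difference from sham was -3.61 in dying neurons. Cnih2, the cornichon protein of AMPA receptors and also on the pyramidal marker list, read 194 and 313, then 541 and 377, then 269 and 135, and 25.6 and 54.6 in the same order. Its difference was -3.59. Of the 6 tested in dying against sham neurons 2 passed as lower and 1 as higher, against 27.2% and 13.6% of all probes tested, and in surviving against sham neurons 0 passed as lower and 1 as higher, against 10.5% and 5.78%. The higher one was Cacng8 in both, named after its values were seen. Cacng8 was not well above background on the first sham array and passed the filter on dim probes only through the injured groups. Its differences from sham, 1.95 in dying and 2.80 in surviving neurons, thus rest in part on an undetected reading.

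The kainate partners Neto1 and Neto2, which slow the gating of kainate receptors, were low in dying pools. Neto1 read 3.75 and 4.46 in naive, 7.45 and 4.78 in sham, 5.48 and 1.49 in surviving pools, and 0.194 and 0.143 in dying pools, and was not well above background on either dying array. It was at least 9.36-fold higher in surviving than in dying neurons and at least 19.6-fold higher in sham than in dying neurons. The bounds were not tested. The fitted log2 difference of surviving from dying neurons, 4.10, did not pass (limma adjusted p = 0.108). The brighter Neto2 probe read 24.5 and 20.5, 37.4 and 39.5, 4.61 and 11.1, and 0.585 and 2.45, not well above background on the first dying array, and differed by -5.01 from sham in dying neurons. The other Neto2 probe went the other way, by 1.65. Of 5 genes in this list 3 had a probe and all 3 were tested. Against sham, dying neurons had 2 of 3 passing as lower, beside the 27.2% of all probes, and in surviving against sham neurons 0 passed. Both calls, Neto1 and the brighter Neto2 probe, passed the filter on dim probes only through sham. The size of the Neto2 difference rests in part on the undetected first dying array.

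Genes of AMPA receptor assembly, scaffolds and traffic numbered 16, of which 15 had a probe and 14 were tested between surviving and dying neurons. There 0 passed, 4 were higher and 0 lower at an unadjusted p under 0.05, and the median was 0.45. The latter 4 were Frrs1l, Olfm2, Nptx1 and Nptxr. Nptx1, a secreted pentraxin that clusters AMPA receptors, read 127 and 221 in naive, 297 and 227 in sham, 57.5 and 28.5 in surviving pools, and 2.60 and 13.5 in dying pools. Its difference from sham was -5.45 in dying and -2.68 in surviving neurons. Nptxr, the pentraxin receptor, read 27.6 and 34.3, 73.9 and 48.9, 29.8 and 20.5, and 8.52 and 8.27, and differed by -2.84 from sham in dying neurons. Both dying arrays lay below all others for either gene. Frrs1l, which assists assembly of the receptor, read 432 and 631, 980 and 626, 851 and 516, and 203 and 318, and differed by -1.62 from sham in dying neurons. Olfm2, a secreted protein found in AMPA receptor complexes, read 1.51 and 2.48, 3.73 and 3.07, 3.02 and 1.92, and 1.23 and 0.788, and differed by -1.78. Altogether 5 of 14 passed as lower and 1 as higher in dying against sham neurons, near the 27.2% and 13.6% of all probes, and 0 passed in surviving against sham neurons. The higher one, Grip2, was not well above background on either sham array and passed the filter on dim probes only through the dying pools.

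Of the genes that edit receptor RNA or repress Gria2, Adarb1, which edits the Q/R site, was above background on all arrays. It read 8.83 and 14.8 in naive, 12.4 and 23.0 in sham, 26.8 and 19.8 in surviving pools, and 6.75 and 21.7 in dying pools, and did not pass in any comparison. Adar read 0.160 and 0.160, 0.399 and 0.572, 0.446 and 0.823, and 0.761 and 0.879. It was above background on the injured arrays only, where the limit of detection was lower. Its undetected reading of 0.572 on the second sham array exceeded the detected 0.446 on the first surviving array. Adarb2 and Rest were above background on no array. Editing itself was not measured. Of the 4 genes 2 were tested in surviving against dying, surviving against sham and dying against sham neurons, and 0 passed.

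**Figure D3:**
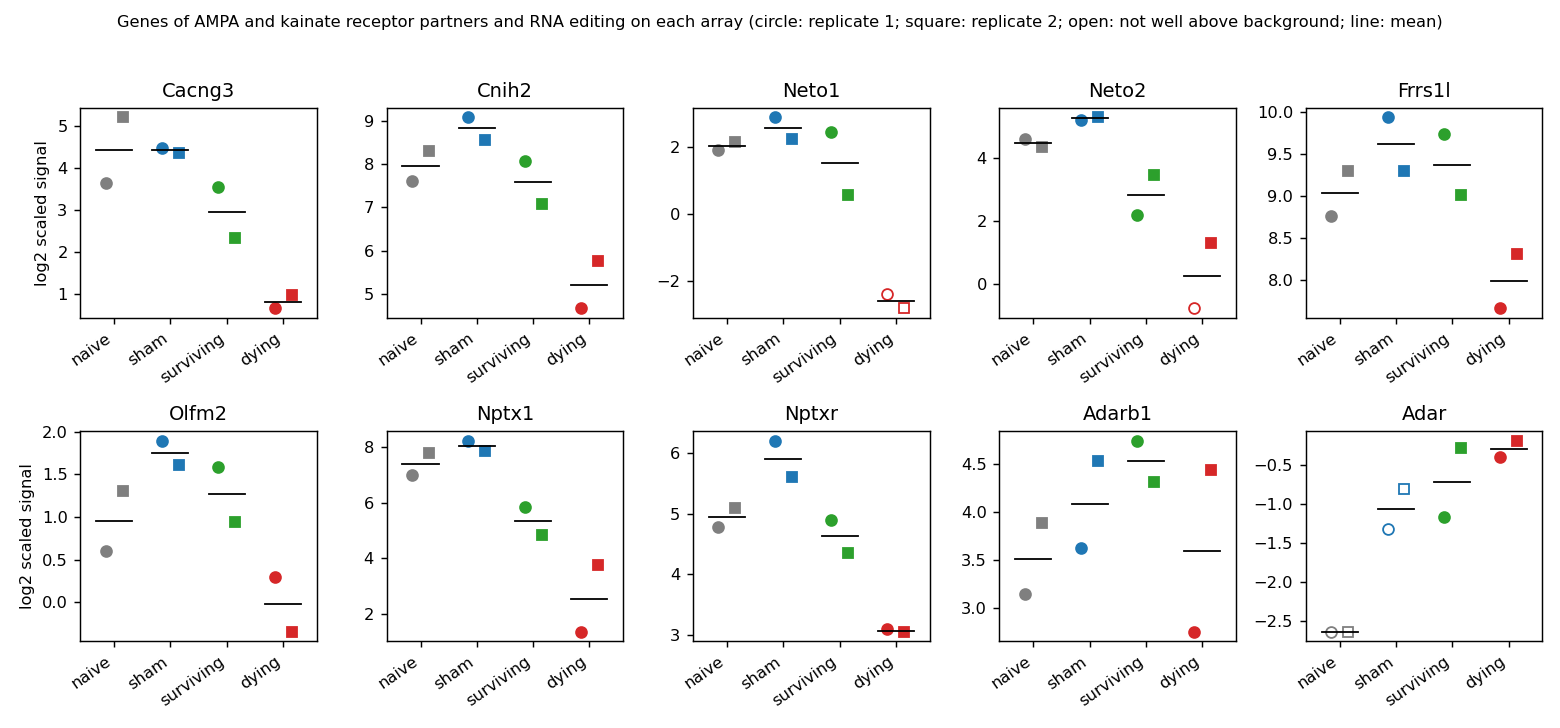
Log2 scaled signal of the 10 partner and editing genes named, with 1 panel a gene, groups of arrays along the x axis, open points not well above background and the line at the mean of 2 arrays. Cacng3, Cnih2, Neto1, Neto2, Frrs1l, Olfm2, Nptx1 and Nptxr were named for lower values in dying than in surviving pools.

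The labelled cells, hippocampal pyramidal neurons, were checked against marker genes. Of 10 pyramidal neuron markers 9 were above background on each naive, sham and dying array, and 9 and 10 on the surviving arrays. Their summed signal, led by Nrgn, was 6324 and 9348 in naive, 12299 and 10632 in sham, 7236 and 6838 in surviving pools, and 3337 and 3921 in dying pools. The Gria2 probes followed the same order from sham to dying. Of 9 pyramidal markers tested, 4 passed in dying against sham neurons as lower and 0 as higher, against 27.2% and 13.6% of all probes tested. In surviving against sham neurons 1 of 9, Snap25, passed as lower, against 10.5%.

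Microglia and macrophage markers moved the opposite way. Their summed signal, with C1qb highest on average and C1qa on the naive and sham arrays, was 130 and 260 in naive, 270 and 247 in sham, 318 and 346 in surviving pools, and 1993 and 1086 in dying pools. Between 7 and 10 of the 10 markers were above background on each array. Of 8 tested, 5 passed as higher and 0 as lower in dying against sham neurons, against 13.6% and 27.2% of all probes tested. Between 4 and 6 of the 6 endothelium and pericyte markers, and 4 or 5 of the 5 oligodendrocyte precursor markers, were above background on each array. Summed endothelium and pericyte markers, with Pdgfrb highest on average, were 65.5 and 109, then 118 and 90.98, then 78.6 and 67.1, and 385 and 141. Summed oligodendrocyte precursor markers, led by Olig1, were 444 and 418, 640 and 476, 289 and 307, and 1110 and 581. Their part in the lower AMPA and kainate signals of the dying pools was not tested.

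Astrocyte markers, led by Slc1a3, summed to 830 and 931 in naive, 1370 and 937 in sham, 436 and 488 in surviving pools, and 1172 and 485 in dying pools, with 7 or 8 of 8 above background. Of 7 tested 2 passed as lower in surviving and 2 in dying against sham neurons, against 10.5% and 27.2% of all probes. Interneuron markers, with Pvalb highest on average and Sst on the first dying array, summed to 332 and 455, 419 and 397, 168 and 155, and 681 and 164. Lhx6 was above background on no array, and 6 or 7 of 8 interneuron markers were above background on each. Of 7 tested 1 passed as lower in surviving and 2 in dying against sham neurons. Gad1 was called in both. It was not well above background on the second surviving and both dying arrays and passed the filter on dim probes only through sham. The part of astrocyte and interneuron markers in the lower AMPA and kainate signals was not tested.

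Some markers of oligodendrocytes were lower in injured pools too. Of 7 tested, 3 passed as lower in surviving and 4 in dying against sham neurons, against 10.5% and 27.2% of all probes tested. Mal read 12.4 and 17.7 in naive, 25.2 and 27.1 in sham, 2.64 and 3.23 in surviving pools, and 2.63 and 1.51 in dying pools. It fell by 3.16 in surviving (adjusted p = 0.00995) and by 3.72 in dying neurons against sham (adjusted p = 0.00286). Mog read 126 and 151, 161 and 188, 20.4 and 23.5, and 135 and 28.2, and fell by 2.99 in surviving neurons (adjusted p = 0.0317). Mbp differed by -0.32 and -0.31 and did not pass. Their part in the falls of Gria2 and Grik2 was not tested.

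**Figure D4:**
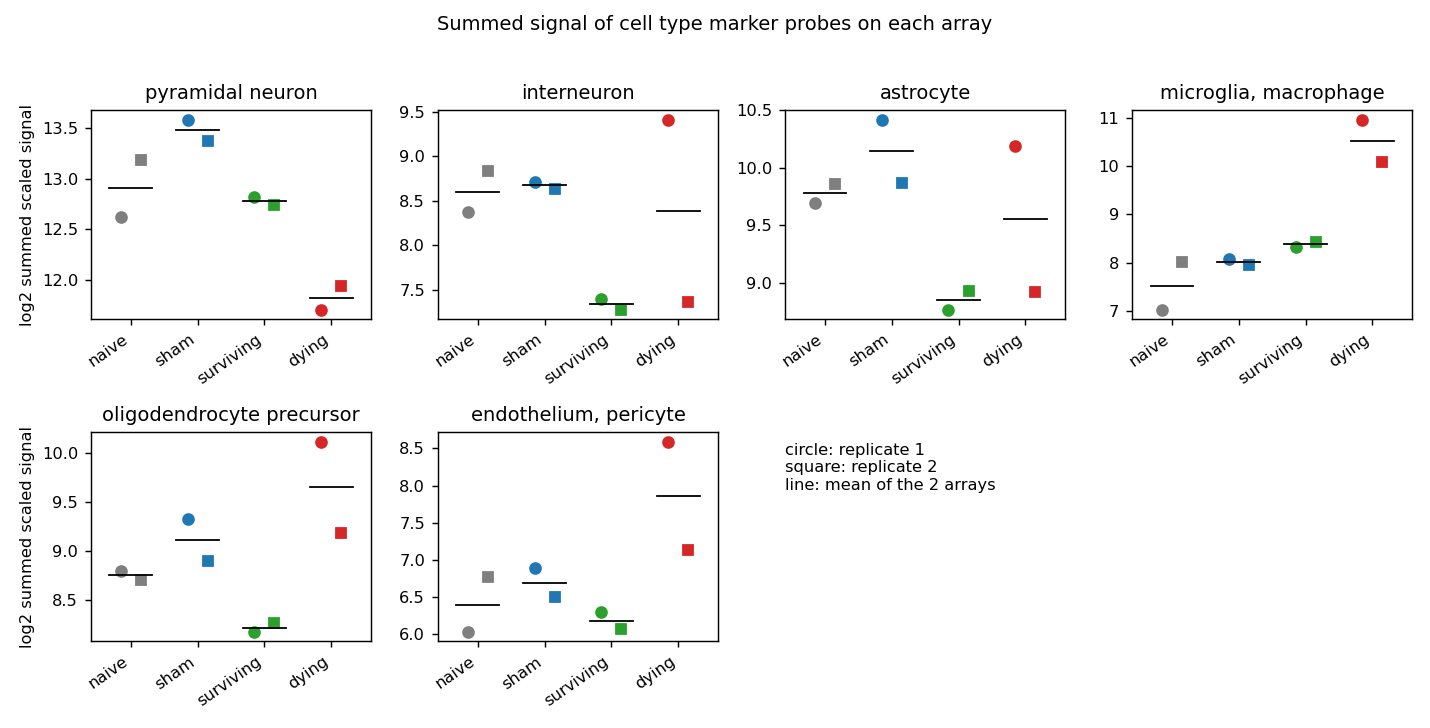
Log2 of the summed scaled signal of marker probes of 6 cell types on each array, with groups along the x axis and the line at the mean of 2 arrays. Microglia and macrophage markers were highest on the 2 dying arrays. Oligodendrocyte markers are not shown.

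The genes whose pattern over the 8 arrays was most like the first Gria2 probe, among 7899 probes that had a RefSeq accession and symbol and were above background on all arrays, were Ap3s1 (Pearson r = 0.999), Nptn (r = 0.998), Stam (r = 0.998), Vopp1 (r = 0.997) and Rit2 (r = 0.997). For Grik5, over 7900 probes, those most alike included Dapk3 (r = 0.968), Metrn (r = 0.933), Cacna2d1 (r = 0.915) and Azin2 (r = 0.914). The arrays compared share groups and slides, so these values describe likeness only.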

How the data were processed

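Per the file headers, the deposited intensity of each spot came from Agilent Feature Extraction 9.1.3.1, and the processed signal used here is that intensity after the authors' background subtraction. The deposited series value table holds the same signal divided by a constant for each array and, for dim probes, set to a minimum of the column, with column medians of 0.131 to 0.282. The labels name a pair of amplification kits and not which pool had which. Non-uniform spots were dropped. The mean over the remaining spots of a probe was divided by the array median, floored at 0.01 and put on the log2 scale. Groups were compared with limma 3.58.1 (R 4.3.3) in 1 fit of all 8 arrays. Adjustment was by Benjamini-Hochberg, with a threshold of 0.05, over probes for which at least 1 compared group had both arrays well above background. A list gene was read from its brightest probe. Named list genes had an unadjusted p under 0.05 with arrays apart between surviving and dying neurons, or else the 2 smallest p in the list. Members and lists were chosen with earlier results of these data known. Tables and figures used Python 3.11.15, pandas 2.3.3, scipy 1.17.1 and matplotlib 3.10.9.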

Additional observations from a re-analysis of the deposited data

How the results depend on the processing

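With 2 arrays a group, 1 probe a transcript and dim signals for Gria1, Grik1 and Grik3, small differences could not be resolved. The cause of each change below was not tested. Where leaving out an array left a lone array, that array was assumed to vary like the other groups. Probes past the threshold in surviving against dying neurons numbered 0 in all processing alternatives but the replicate block on these 4 arrays alone, given below, and 0 to 5408 with 1 array left out. In surviving against sham neurons there were 4388, against 0 with normexp, 1781 among probes above background on all arrays compared, 2707 with the replicate block, 10456 with only those groups fitted and 190 to 7705 with 1 array left out. In dying against sham neurons there were 10456, against 0 with normexp, 5534 among probes above background on all arrays compared and 1857 to 12794 with 1 array left out. Sham against naive neurons gave 0 in every alternative. With the 75th percentile the split of higher and lower calls went from 1555 and 2833 to 3860 and 1304 in surviving against sham neurons, and from 3481 and 6975 to 6664 and 4407 in dying against sham neurons. It was 2270 and 1561, and 5025 and 3981, with quantile normalization, and 5009 and 1393, and 8192 and 3804, with scaling to detected probes. Deviations of pools with the same replicate number showed little correlation between groups (r of -0.194 to 0.0715). Whether such pools shared rats is not stated. Crossing the numbers of the dying arrays, chosen after seeing the data, gave 0 calls in surviving against dying neurons, and the uncrossed block on those 4 arrays gave 372. The subunit median in surviving against sham neurons, -0.42, became 0.36 with the 75th percentile, 0.55 with scaling to detected probes, 0.0752 with normexp, -2.35 among probes above background on all arrays compared, and -0.84 to 0.00152 with 1 array left out. In dying against sham neurons, -3.26 became -0.79 with normexp and -4.15 to -0.90 with 1 array left out. It ranged from 0.62 to 1.64 in surviving against dying and from -0.14 to 0.97 in sham against naive neurons with 1 array left out. Single probes that changed sign had not passed the threshold. In surviving against dying neurons these were Grik3 (-0.0217 with scaling to detected probes, -0.44 to 0.47 with 1 array left out), Gria4 A_44_P349199 (-0.00160 with normexp) and Gria4 A_44_P323349 (-0.49 to 1.88 with 1 array left out). In surviving against sham neurons these were Gria1 (0.64 with the 75th percentile, 0.83 with scaling to detected probes, -0.41 to 0.12 with 1 array left out) and Gria3 (0.0900 with the 75th percentile, 0.14 with quantile normalization, 0.28 with scaling to detected probes, 0.20 with normexp). Dying against sham neurons gave Gria4 A_44_P323349 (-0.00595 with normexp, -0.0653 to 1.47 with 1 array left out), Grik5 (-0.59 to 2.60), Grik4 (-5.87 to 0.16) and Grik1, not tested (-0.165 to 1.87). In sham against naive neurons these were Gria3 (-0.20 with the 75th percentile, -0.22 with quantile normalization, -0.34 with scaling to detected probes, -0.82 to 0.995 with 1 array left out), Gria4 A_44_P349199 (-0.0507 with the 75th percentile, -0.18 with scaling to detected probes, -0.42 to 0.899 with 1 array left out), Grik4 (-0.14 to 1.2), Grik5 (-2.44 to 1.59) and, with normexp, Grik3, not tested. The log2 ratio of Gria2 to Gria3 in surviving against dying neurons, -1.18, became 1.19 with normexp and -3.52 to 1.17 with 1 array left out. It ranged in dying against sham neurons from -3.94 to 0.75, in sham against naive from -0.0227 to 1.79 and in surviving against sham from -3.61 to -1.94. The ratio of Gria2 to Gria1 ranged from -0.27 to 0.79 in sham against naive neurons, -3.85 to -2.79 in surviving against sham, -4.64 to -3.58 in dying against sham and 0.40 to 1.18 in surviving against dying, with 1 array left out, and was 1.88, -2.06, -4.14 and 2.08 in that order with normexp.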
